A study of Homo sapiens with 5 samples.

Results

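PHLDA1 and the acetylated chromatin beside it were examined in the human colorectal cancer cell line HCT116, in a stretch of chromosome 12 from 76000000 to 76500000 (hg19, positions counted from 1). The members were all peak summits listed in that stretch, 235 of 209263 in the series. The stretch was selected on measured values, the density of its H3K27ac summits, so its number of H3K27ac summits is a description and supports nothing. PHLDA1 was placed at about 76.419 to 76.426 Mb, and a dense run of H3K27ac summits, called the distal cluster here, at 76.089 to 76.182 Mb.

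Summits came from 5 ChIP-seq libraries. Cells had been given a control siRNA or an siRNA against the long noncoding RNA ENO1-IT1 for 48 h, and chromatin was precipitated with an antibody to acetylated lysine 27 of histone H3 (H3K27ac) or to the acetyltransferase KAT7. Input DNA was the fifth library, and which siRNA its cells had received is not given in the sources used here. All cells were HCT116 at passages 16 to 19. Each group held 1 library, so differences between siRNAs have no replicate check and no p-value is given. The groups rest on the sample titles alone, and an exchange of the 2 siRNA titles would turn each direction below. Transcripts were not measured in these lists, so neither the knockdown nor PHLDA1 expression was checked.

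PHLDA1 encodes a small protein with a pleckstrin homology-like domain. It is switched on by growth factor signalling through ERK and by stress, and it has been used as a marker of epithelial stem cells in the human intestine. H3K27ac marks active promoters and enhancers, and long runs of acetylated elements around a gene are often described as super-enhancers. KAT7, also called HBO1, is the catalytic subunit of complexes with BRPF or JADE scaffold proteins and acetylates histones H3 and H4, mainly at lysines other than lysine 27 of H3.

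The promoter of PHLDA1 is printed because the strongest summits at the gene lay at that end of it. The RefSeq sequence for GRCh38.p14 spans chr12:76031727-76032026 on the minus strand, from 250 bases before to 50 bases after the gene's start. These are positions of another build and cannot be set against the hg19 positions of the summits. Capitals mark the motif matches found, an ETS core on the reverse strand at bases 162 to 167 and a GC box at bases 215 to 220, counted from the 5′ end.
PHLDA1 promoter: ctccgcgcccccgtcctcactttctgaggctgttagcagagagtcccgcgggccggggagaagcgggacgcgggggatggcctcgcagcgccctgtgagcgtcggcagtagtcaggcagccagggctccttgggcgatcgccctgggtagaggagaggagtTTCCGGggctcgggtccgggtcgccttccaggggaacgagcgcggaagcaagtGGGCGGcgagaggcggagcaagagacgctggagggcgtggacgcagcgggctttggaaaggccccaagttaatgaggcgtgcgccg

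On both strands 7 motifs were searched, and no matches overlapped. The ETS core CCGGAA was found in 17.2% of the 35116 RefSeq promoters of this length and the GC box GGGCGG in 45.0%. The letters of the CCAAT box (CCAAT, 34.6% of promoters), the TATA box (TATAAA, 11.5%), the AP-1 site (TGANTCA, 7.71%), the cAMP response element (TGACGTCA, 1.85%) and the serum response element (CArG box, 1.29%) were not in this window. A match is a description of letters and not a binding site. The sequence had 69.3% G and C against a median of 58.7% over all promoters, and 32 CpG dinucleotides against a median of 14. Of all promoters, 81.1% had fewer CpG dinucleotides. The printed stretch overlapped the promoter window of PHLDA1-DT, a noncoding gene on the opposite strand, by 136 bases.

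In RefSeq gene order the coding neighbours of PHLDA1 are KRR1, a ribosome biogenesis factor, and NAP1L1, a histone chaperone. Between KRR1 and PHLDA1 stood 10 entries, 5 long noncoding RNAs and 5 pseudogenes. Between PHLDA1 and NAP1L1 stood PHLDA1-AS1 and PHLDA1-DT. No hg19 annotation was used, so no summit was placed in an exon, intron or promoter, and the distal cluster was not assigned to a target gene.

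H3K27ac was listed at 109 summits of the stretch in control cells (exact Poisson 95% interval 89.5 to 131) and at 105 after ENO1-IT1 siRNA (85.9 to 127). KAT7 was listed at 18 (10.7 to 28.4) and 3 (0.619 to 8.77). Input DNA had no summit there, where a count of 0 allows up to 3, and the nearest input summit was 25793 kb away. These intervals cover counting error only, and neighbouring summits are not independent. The input list held 31 summits on the whole of chromosome 12, so 0 in 500 kb is an ordinary count. The H3K27ac counts describe the property for which the stretch was selected, and no conclusion is drawn from them.

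No other tile of the genome held as many H3K27ac summits. Because the stretch was selected for this density, its place among tiles is a description only. Among 5791 tiles of 500 kb the control list had a mean of 5.08 and the next fullest tile held 74. The knockdown list had a mean of 5.50, and its next fullest tile held 77. The adjoining 500 kb on either side held 7 and 8 control summits and 10 and 10 knockdown summits. The ratio of knockdown to control H3K27ac summits was 0.963 in the stretch and 1.08 over the whole lists. The plot of tiles shows the place of the stretch in both lists. The stretch coincides with a tile, while other dense regions can be cut by tile edges. In windows of 500 kb not bound to the tiles, the next fullest held 81 summits in each list. It lay on chromosome 4 in the control and on chromosome 19 after knockdown.

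**Figure D1:**
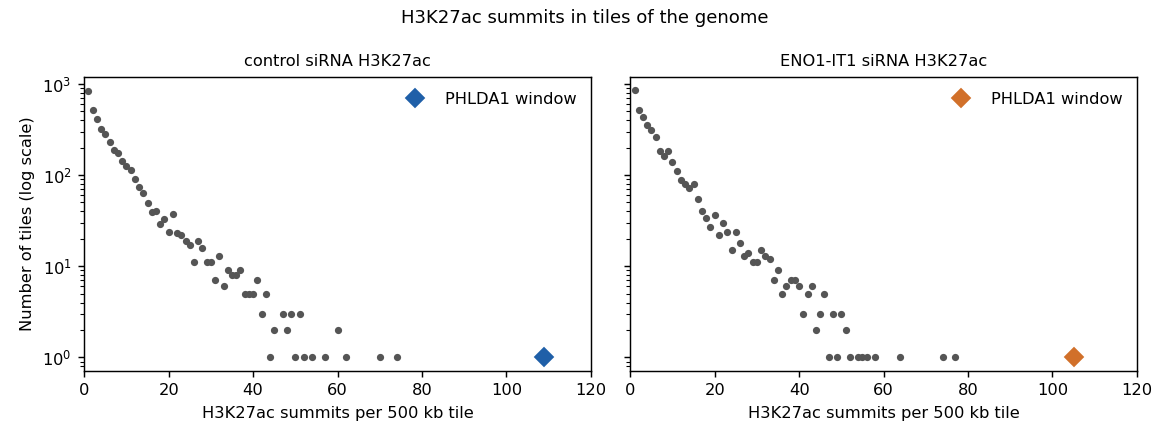
Number of 500 kb tiles (vertical axis, log scale) by the number of H3K27ac summits they held (horizontal axis), for control siRNA and ENO1-IT1 siRNA. Grey points are tiles with at least 1 summit, and the diamond is the PHLDA1 window, at 109 and 105 summits, beyond the next fullest tiles at 74 and 77.

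The density came from many summits of modest score. The score is a -log10 p or q value and grows with sequencing depth, so it ranks summits within a list only. The median score was 5.59 in the stretch against 7.14 in the whole control list, and 5.42 against 8.02 in the knockdown list. None of the 305 control summits scoring at least 50 lay in the stretch, and 3 of the 584 knockdown summits did. The highest control summit there ranked 310 of 29429, and the highest knockdown summit 237 of 31839. With summits scoring at least 10 the stretch held 26 in the control and came second to a tile with 29. With that minimum the knockdown list held 27 and came at place 3, level with 2 other tiles and below a highest tile of 36. At a score of at least 20 it held 9 and 14, and stood at places 15 and 10, with 9 and 2 other tiles level with it.

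**Figure D2:**
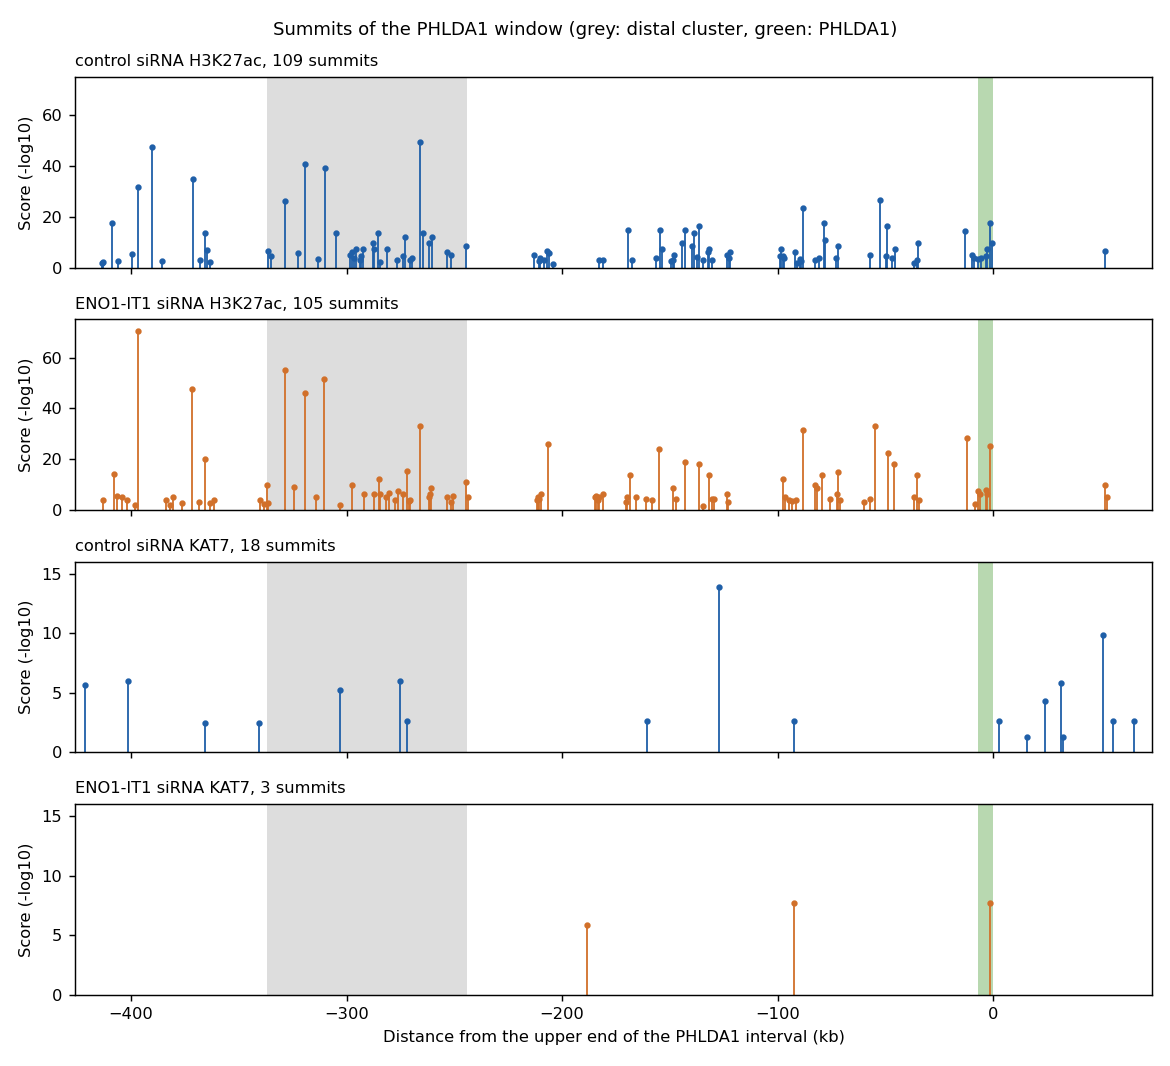
Score (vertical axis, -log10) and position (horizontal axis, kb from the upper end of the PHLDA1 interval) of each summit in the PHLDA1 window, 1 panel per immunoprecipitated list; the H3K27ac panels reach 75 and the KAT7 panels 16. Grey marks the distal cluster and green PHLDA1. H3K27ac fills several runs in both conditions, with 109 and 105 summits, and KAT7 has 18 and 3, near the tile means of 21.1 and 4.25.

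The acetylated summits were not confined to the distal cluster. The cluster is 93 kb long, or 18.6% of the stretch, and held 32 of the 109 control summits (29.4%) and 29 of the 105 knockdown summits (27.6%). In 50 kb steps from the lower end, control cells had 8, 8, 18, 11, 9, 18, 16, 11, 9 and 1 H3K27ac summits. The knockdown list had 11, 10, 14, 13, 10, 15, 11, 12, 7 and 2. The last step, beyond PHLDA1, was the emptiest in both. Another 93 kb from 76256550 held 34 control summits, 2 more than the cluster. In the knockdown list the fullest such length was the cluster's own, with 30 summits from 76086034, and another from 76214201 held 27. The label's single cluster is therefore 1 of several runs in these lists.

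The coarse outline of the runs was alike in both conditions. Summits joined where at most 20 kb apart gave 7 runs in each list, divided by 6 gaps of 21.7 to 52.1 kb in the control and 21.6 to 53.3 kb after knockdown. Each control gap overlapped a knockdown gap. The finer division differed, with 11 and 10 runs when joined at 10 kb. Joined at 5 kb, runs of 3 or more summits numbered 11 in the control and 16 after knockdown. The longest of the 6 gaps in each list began at PHLDA1 and ended at 76477844 in the control and 76477809 after knockdown. Beyond the last H3K27ac summits of the stretch, at 76477844 in the control and 76478737 after knockdown, the next were 245 and 235 kb further on. At the lower edge the first summits inside the stretch, at 76012534 (score 2.01) and 76013013 (3.96), followed 107 and 91.0 kb without H3K27ac. The last before those gaps lay at 75905850 (5.45) and 75922047 (4.40). At the upper edge, the last summits inside were at 76477844 (6.47) and 76478737 (5.21), and the first outside at 76722809 (6.15) and 76713635 (6.49).

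In 10 kb bins the agreement was close. Of 50 bins, 37 held a control and 35 a knockdown H3K27ac summit, and each of those 35 also held a control summit. Over the genome 91.4% of bins with a control summit also held a knockdown summit, against 94.6% here. Most bins of the stretch were filled in both lists, so this agreement is partly bound to the density for which it was selected.

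Single summits coincided less often than bins. A control H3K27ac summit was counted as shared when a knockdown summit lay at most 500 bp away. By that rule 49 of the 109 control summits were listed in the control only, and 60 were shared (55.0%, exact Clopper-Pearson 95% interval 45.2 to 64.6%). Over the whole list 28.1% were listed in the control only. Of the 105 knockdown summits 47 were listed after knockdown only, and 58 were shared (55.2%, 45.2 to 65.0%). Over the whole knockdown list 35.7% were listed after knockdown only. At 500 bp the control interval of the stretch lay below the 71.9% of its whole list, and the knockdown interval reached the 64.3% of its list. Neighbouring summits are not independent, so these intervals understate the error. Among the next fullest tiles by control H3K27ac, control summits were shared in 48.6% on chromosome 1 and 46.8% on chromosome 7. On chromosome 19 it was 70.0%. A low control share was thus not particular to the stretch. In the stretch, summits scoring at least 10 were shared in 14 of 26 control cases (53.8%, 33.4 to 73.4%), against 81.1% of such summits in the whole list. After knockdown it was 19 of 27 (70.4%, 49.8 to 86.2%), against 88.0%.

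The distance between listed positions entered these shares. The median distance from a control summit to the nearest knockdown summit was 430 bp in the stretch and 188 bp over the whole list. From the knockdown side it was 390 and 228 bp. Within 1000 bp, 73.4% of control and 77.1% of knockdown summits were shared, against 87.3% and 75.7% over the lists. Within 2000 bp it was 94.5% (88.4 to 98.0%) and 86.7% (78.6 to 92.5%) in the stretch, against 93.5% and 81.1% over the lists. Both intervals include the value of their list. Summits stood 1832 bp apart at the median in the control stretch and 2443 bp apart after knockdown, against 12812 and 16209 bp over the lists. The shares at 500 bp, and more so those at 1000 and 2000 bp, are therefore bound to the density for which the stretch was selected. This holds also for the shares of the distal cluster and of PHLDA1 given below.

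**Figure D3:**
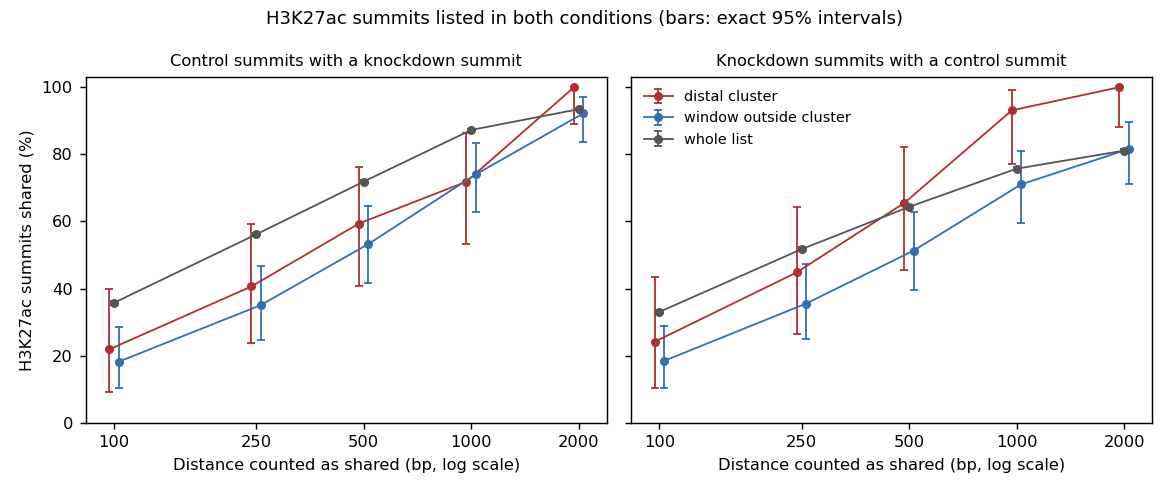
Share of H3K27ac summits with a summit of the other condition (vertical axis, percent) by the distance counted as shared (horizontal axis, bp, log scale), for the distal cluster, the rest of the PHLDA1 window and the whole list. Points are shares and bars exact 95% intervals. At 500 bp the control shares are 59.4%, 53.2% and 71.9%, and at 2000 bp each control cluster summit has a knockdown summit.

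In the distal cluster 19 of 32 control summits (59.4%, 40.6 to 76.3%) and 19 of 29 knockdown summits (65.5%, 45.7 to 82.1%) were shared. Elsewhere in the stretch it was 41 of 77 (53.2%, 41.5 to 64.7%) and 39 of 76 (51.3%, 39.6 to 63.0%). The intervals of cluster and rest overlapped, and the difference between them was not tested. The cluster's edges fell at 76089508 (score 6.69) and 76181288 (8.49) in the control. The nearest control summits outside lay at 76062409 (2.40) and 76213143 (5.03). After knockdown the edges were 76089094 (9.93) and 76181207 (11.2), with summits just outside at 76087854 (2.51) and 76182146 (5.21).

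In both conditions 4 sites led the cluster, at most 679 bp apart between the lists. The site at 76160158 had the highest control score, 49.5 (rank 310), and its knockdown counterpart 127 bp away at 76160285 scored 33.2 (rank 1869). The control summit at 76106698 scored 40.8, and the knockdown summit 83 bp away at 76106781 scored 46.1. The control summit at 76097273 scored 26.2, and the knockdown summit 95 bp away at 76097368 scored 55.1, the highest of the cluster in that list. The control summit at 76116120 (score 39.3) and the knockdown summit at 76115441 (51.6) were 679 bp apart and so not shared by the 500 bp rule. The strongest elements of the cluster were thus listed under both siRNAs, 3 of the 4 within 127 bp.

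Below these 4, the control summits at 76121311, 76140584 and 76161620 shared a score of 13.6. The one at 76140584 had a knockdown summit 277 bp away, and the others lay 1491 and 1335 bp from knockdown H3K27ac. The next after knockdown was 76154207, which scored 15.2 and lay 879 bp from the control summit at 76153328 (score 12.3). Other summits above their list's median score with no counterpart within 500 bp were 76130298 (score 7.31) in the control and 76101589 (9.06) after knockdown. Both had a summit of the other condition at most 1831 bp away.

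Outside the cluster the strongest summits lay at the lower end of the stretch. The highest knockdown score of all, 70.7 (rank 237), was at 76029172, and the control summit 128 bp away at 76029044 scored 31.8. The summit at 76054543 scored 34.7 in the control and had a knockdown counterpart 91 bp away at 76054452, which scored 47.7. Nearer to PHLDA1, the summits at 76337837 (control, 23.5) and 76337854 (knockdown, 31.6) were 17 bp apart.

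The control summit at 76035564 stood alone among the strong ones. It scored 47.6 and ranked 342 of 29429, and the nearest knockdown summit was 6392 bp away. No KAT7 summit lay closer than 11000 bp in the control. The summits at 76373669 (control, 26.5) and 76371219 (knockdown, 33.2) were 2450 bp apart, and the knockdown summit at 76413974 (28.4) was 795 bp from a control summit at 76413179. Of the 5 highest-scored summits outside the cluster, 3 were shared in each direction.

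At PHLDA1 itself, from 5 kb before to 5 kb after the interval, 8 control and 6 knockdown H3K27ac summits were listed. Inside the interval there were 6 and 5. The gene is on the minus strand in RefSeq, so the upper end of the interval is its start. The summit with the highest control score at the gene lay at 76424774, 1.23 kb below that end, with a score of 17.7 (rank 3632). The highest after knockdown was 238 bp away at 76424536, 1.46 kb below the end, with a score of 25.4 (rank 3504). The interval is rounded to 1 kb, so these distances are approximate.

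The weaker summits continued through the gene. From the start side, control summits were listed at 76425720 (score 9.68), 76423088 (7.31), 76422524 (4.75), 76420274 (3.96) and 76419035 (3.54). Knockdown summits followed at 76423332 (6.49), 76422573 (8.07), 76420076 (6.33) and 76419074 (7.50). Beyond the far end were 76416988 (3.96) and 76416385 (5.03) in the control and 76417700 (2.51) after knockdown. By the 500 bp rule 5 of the 8 control and 5 of the 6 knockdown summits were shared. The control summit nearest to the start, at 76425720, was not among the shared ones, and the nearest knockdown summit was 1184 bp away. PHLDA1 was thus listed as acetylated along its length under both siRNAs.

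**Figure D4:**
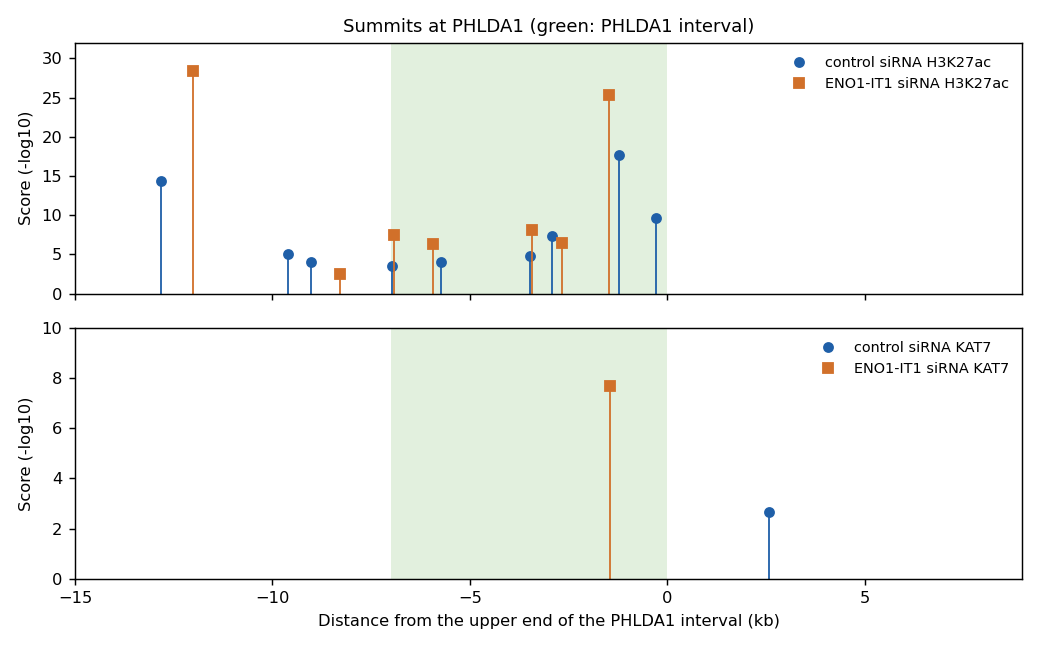
Score (vertical axis, -log10) and position (horizontal axis, kb from the upper end of the PHLDA1 interval) of H3K27ac summits (top) and KAT7 summits (bottom) at PHLDA1; circles are control siRNA, squares ENO1-IT1 siRNA, and green is the gene. H3K27ac runs through the gene in both lists, and the KAT7 summit inside it, with a score of 7.67, is in the knockdown list.

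Inside PHLDA1, KAT7 was listed after ENO1-IT1 siRNA and not in the control. The knockdown KAT7 summit lay at 76424556, 1.44 kb below the start end, with a score of 7.67 (rank 11693 of 24611), 20 bp from the knockdown and 218 bp from the control H3K27ac summit. It was the only knockdown KAT7 summit of the stretch within 500 bp of H3K27ac. The nearest control KAT7 summit was 4021 bp away at 76428577, outside the gene on its start side, with a score of 2.68. That score was shared by 52298 of the 122439 control KAT7 summits. The knockdown score was shared by 1753 summits of its list and equal to the list's median. Without a replicate the appearance of a summit in 1 list has no measure of error.

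KAT7 was no denser in the stretch than in the genome at large. The 18 control KAT7 summits compare with a mean of 21.1 per tile, and 28.5% of tiles held fewer. The 3 knockdown summits compare with a mean of 4.25, and 29.0% of tiles held fewer. The adjoining 500 kb tiles held 32 and 24 control and 3 and 4 knockdown summits. Control KAT7 summits were 6 times as many as knockdown ones in the stretch and 4.97 times as many over the genome. By KAT7 the stretch was near the median tile, at 18 against 21 in the control and 3 against 4 after knockdown. The Poisson intervals of both counts include these medians.

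Few H3K27ac summits of the stretch had KAT7 beside them. In the control it was 2 of 109 within 500 bp (1.83%, 0.223 to 6.47%), against 14.8% over the whole list. After knockdown it was 1 of 105 (0.952%, 0.0241 to 5.19%), against 14.3%. Both intervals lay below the value of their list. However, the stretch was selected for its many H3K27ac summits and held 18 and 3 KAT7 summits. So few KAT7 summits can lie beside only a small part of so many H3K27ac summits. All shares of this paragraph are therefore bound to that selection and do not measure how KAT7 relates to H3K27ac here. In the distal cluster it was 0 of 32 in the control, which allows up to 10.9%, and 0 of 29 after knockdown. The cluster held 3 control and 0 knockdown KAT7 summits, and the nearest knockdown one lay at 76237619. The 0 of 29 was therefore fixed by the absence of KAT7 summits and has no interval of use. Among control summits scoring under 10, 1 of 83 had KAT7 (1.20%, 0.0305 to 6.53%), against 12.2% of such summits in the list. After knockdown it was 0 of 78, which allows up to 4.62%, against 12.4%. Among those scoring at least 10 it was 1 of 26 in the control (3.85%, 0.0973 to 19.6%), against 20.7% of the list. After knockdown it was 1 of 27 (3.70%, 0.0937 to 19.0%), and this interval includes the 17.0% of its list.

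The 3 other fullest tiles by control H3K27ac were set beside it. On chromosome 1 from 8000001 to 8500000, 5 of 74 control summits (6.76%, 2.23 to 15.1%) and 1.35% (0.0342 to 7.30%) of knockdown summits had KAT7. On chromosome 7 from 130500001 to 131000000 it was 0 of 62 and 0 of 54. On chromosome 19 from 1000001 to 1500000 it was 14.3% in both conditions (7.07 to 24.7% and 7.35 to 24.1%). After knockdown that tile held 20 KAT7 summits, against 4 on chromosome 1, 2 on chromosome 7 and 3 in the PHLDA1 stretch. The knockdown shares are thus bound to these counts. In the control the counts were closer, at 22, 24, 24 and 18 in the same order. The control interval of the chromosome 19 tile did not overlap that of the PHLDA1 stretch, while those of the other two did. The low share was therefore not particular to the PHLDA1 stretch.

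**Figure D5:**
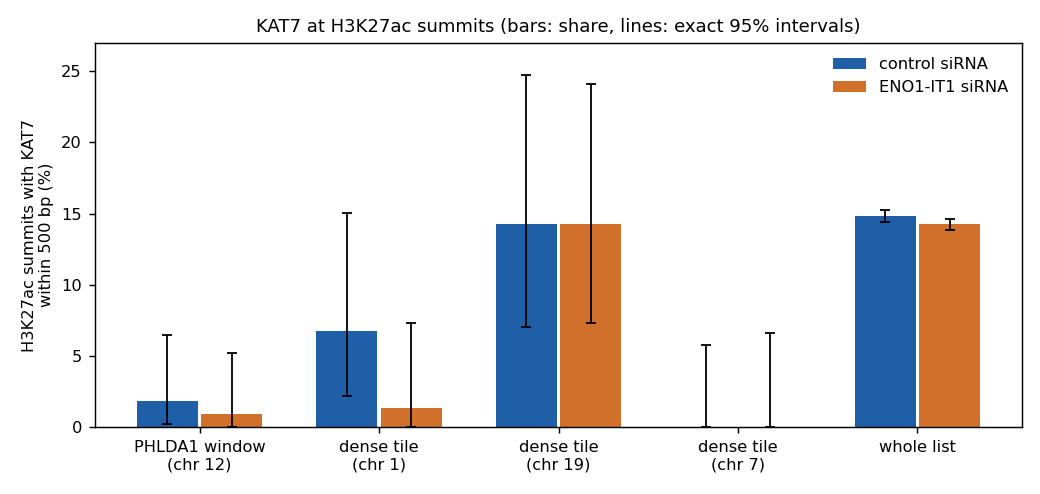
Share of H3K27ac summits with a KAT7 summit of the same siRNA within 500 bp (vertical axis, percent) in the PHLDA1 window, in the 3 next fullest 500 kb tiles by control H3K27ac and in the whole lists. Bars are shares and lines exact 95% intervals. The PHLDA1 window stands at 1.83% and 0.952%, below the whole lists at 14.8% and 14.3%. It was selected for many H3K27ac summits and held 18 and 3 KAT7 summits, which limits its shares.

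Most control KAT7 summits of the stretch lay near acetylated summits but few lay on them. Of the 18, 2 were within 500 bp of a control H3K27ac summit (11.1%, 1.38 to 34.7%), against 3.67% of the list. They were the summits at 76060378 (score 2.43, 241 bp away) and 76333683 (score 2.68, 359 bp away). Within 5000 bp it was 12 of 18 (66.7%), against 8.98% of the list, and the median distance was 3624 bp against 93167 bp. Both values are bound to the density of H3K27ac in the stretch. After knockdown 1 of the 3 KAT7 summits was on H3K27ac, against 19% of that list. Of the 18 control summits 8 (44.4%) lay beyond PHLDA1, in 14.8% of the stretch, where 1 of the 109 control H3K27ac summits lay. The gap of 52.1 kb without control H3K27ac held 6 control KAT7 summits.

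The strongest control KAT7 summit, at 76298947 with a score of 13.9 (rank 1570), was 3519 bp from control H3K27ac. The next, at 76477258 with a score of 9.82, was 586 bp from the lone control H3K27ac summit beyond PHLDA1. Summits at 76024564 and 76150963 both scored 6.02, and those at 76457669, 76004579 and 76122729 scored 5.80, 5.66 and 5.28. The lowest in the distal cluster, at 76154140, scored 2.68. Of the 18, 8 (44.4%) carried 1 of the 2 most frequent scores of the list, 2.68 and 1.31, against 64.2% of all control KAT7 summits.

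Most KAT7 summits were listed under 1 siRNA only, here as in the rest of the genome. Of the 18 control summits 17 were listed in the control only, against 93.4% of the list. The control-only shares are largely set by list length, with 122439 control and 24611 knockdown KAT7 summits over the genome. They therefore do not show that positions changed. Of the 3 knockdown summits 2 were listed after knockdown only, against 67.8%. The shared pair was 229 bp apart, at 76333683 in the control (score 2.68) and 76333454 after knockdown (7.67). The remaining knockdown summit, at 76237619 (5.83), was 27757 bp from control KAT7 and 3509 bp from knockdown H3K27ac. With counts this small the shares of the stretch and of the lists were not distinguishable.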

How the data were processed

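Summits were taken from 5 deposited lists, 1 per library, with 1 summit of 1 bp per peak. Bowtie (alignment to hg19) and MACS2 (peak calling) are named in the submitters' processing notes. The sources used here give no versions or options and do not say which control entered the calling. Each summit has a score deposited by the authors, the -log10 of a p or q value in the MACS2 layout. Whether p or q was used is not stated. The lists hold no read counts, so depth is unknown. The stretch and the gene lists were chosen with earlier results of these data known.

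The comparison used Python 3.11.15 with pandas 2.3.3, numpy 2.4.6 and SciPy 1.17.1, and matplotlib 3.10.9 for plots. Summits were shared at 500 bp or less. Shares have exact Clopper-Pearson 95% intervals and counts exact Poisson intervals, both for counting error only. Simulated lists with known shares were used to check the code. With 1 library per group nothing was tested between siRNAs. Named summits were those within 5 kb of PHLDA1, the 5 highest-scored of each immunoprecipitated list inside and outside the distal cluster, and cluster H3K27ac summits of 1 condition above their list's median score. Summits outside this rule were named for the edges of runs, the counterparts of named summits and the KAT7 pairs, after their values were seen. PHLDA1 was matched by symbol to RefSeq for GRCh38.p14, used for its promoter, strand and neighbours only. Genes of the ERK pathway and other PHLDA family members were not analysed here, because no hg19 annotation was used.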

Additional observations from a re-analysis of the deposited data

How the results depend on the processing

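Of 91 alternative values for 21 results, 49 stayed within the 95% interval of a reported share or within 1.5 times a reported count, place or length. A share could still move 2-fold or more inside a wide interval, as did that of control H3K27ac with KAT7, at 0.917% for 250 bp and 4.59% for 1000 bp, and that of knockdown H3K27ac with KAT7, at 1.90% for 1000 bp. No paired analysis was possible because each group held 1 library. With distances of 100, 250 and 2000 bp the shared share of control cluster H3K27ac was 21.9%, 40.6% and 100%, and 71.9% at 1000 bp. The knockdown cluster share at 100, 250, 1000 and 2000 bp was 24.1%, 44.8%, 93.1% and 100%. Outside the cluster the control share was 18.2%, 35.1%, 74.0% and 92.2%, and the knockdown share 18.4%, 35.5%, 71.1% and 81.6%. For KAT7 both shares were 0% at 100 bp, and the control share was 0% at a score of at least 10, where 1 control summit remained and the knockdown share could not be computed. The share of control H3K27ac summits with KAT7 was 0% at 100 bp and 10.1% at 2000 bp, that of knockdown summits 5.71% at 2000 bp, and both were 0% at a score of at least 10. At scores of at least 5, 10 and 20 the control H3K27ac summits numbered 62, 26 and 9, the knockdown ones 68, 27 and 14, and control KAT7 summits 7, 1 and 0. No knockdown KAT7 summit scored 10 or 20, so its counts were 0. Extending the stretch by 250 kb on either side gave 41 control and 8 knockdown KAT7 summits. Within 2 kb of PHLDA1 the control KAT7 count was 0. Joining control summits at 5 kb shortened the cluster to 38.0 kb. The place among tiles at scores of at least 10 and 20, an alternative chosen after seeing the data, was 2 and 15 in the control and 3 and 10 after knockdown. Unknown depth limits every count and score.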

Other observations

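Control KAT7 summits of the stretch were set against the H3K27ac list of the other siRNA. Of the 18, 4 had a knockdown H3K27ac summit within 500 bp, against 2 with a control one. These were 76154140 and 76122729 in the distal cluster, 67 and 73 bp from knockdown H3K27ac, 76060378 at 154 bp and 76024564 at 287 bp. Their nearest control H3K27ac summits were 812, 1418, 241 and 1978 bp away. Their scores were 2.68, 5.28, 2.43 and 6.02. The difference between 4 and 2 was not tested.

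By windows of 93 kb that do not overlap, the distal cluster ranked lower than the whole stretch did. Windows on chromosome X from 114960736 (43 summits) and 45575390 (41) and on chromosome 3 from 98231843 (41) came first in the control list. After knockdown the fullest began at 45578322 on chromosome X, with 47 summits. The distal cluster held 32 control and 29 knockdown summits.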
